A study of Mus musculus with 3 samples.

Results

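The 10 genes described here encode the core of classical non-homologous end joining and the first sensors of a DNA double-strand break. They were chosen by name (Xrcc6, Xrcc5, Prkdc, Dclre1c, Xrcc4, Lig4, Nhej1, Atm, H2afx and Trp53bp1), and all 10 were among the 32285 genes of the deposited count matrices. They were read in mouse thymus cells with at least 500 detected genes and under 10% mitochondrial UMIs (unique molecular identifiers, each standing for 1 captured RNA molecule).

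In end joining, the Ku ring (Xrcc6 encodes Ku70, Xrcc5 encodes Ku80) slides onto a broken DNA end and recruits the kinase DNA-PKcs (Prkdc), Artemis (Dclre1c) opens hairpin ends, and a complex of Xrcc4, DNA ligase IV (Lig4) and XLF (Nhej1) seals them, while Atm, H2afx (histone H2AX) and Trp53bp1 (53BP1) signal the break and protect its ends. In the thymus these factors also join T cell receptor gene segments after the Rag1-Rag2 recombinase cuts them. The alpha chain locus is joined in resting CD4+ CD8+ double positive (DP) cells, before selection and maturation into CD4+ or CD8+ single positive (SP) cells.

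Single thymus cells came from female mice aged 4 weeks, with 1 library for each of 3 genotypes: p53+/-, p53 AD/- and p53-/-. No group carries 2 intact p53 copies according to the sample labels, although the series' design line calls the first group wild type. What AD stands for is not in the labels (the series title speaks of p53 dimers), which give all 3 the same mixed strain of BALB/C and C57BL origin. With 1 library per genotype there is no replicate, no test was made, and genotype, animal and library cannot be told apart. Brackets hold exact 95% intervals, which reflect counting error alone. For stages, each library served as its own reference, so each stage difference was read 3 times.

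After filtering, 8150, 6171 and 9543 cells remained in the p53+/-, p53 AD/- and p53-/- libraries, and values are given in that order throughout. Their median UMI counts per cell were 3238.5, 2484 and 3062, and pairs of libraries shared 15 to 29 barcodes, none with identical counts. Trp53 was counted at 86.1, 90.9 and 74.9 CPM (UMIs per 1000000 UMIs of the sum), but where the gene is deleted is not in the labels, so this count checks none of them. The median share of Malat1, a nuclear RNA, was 5.08%, 2.80% and 5.63%. Summed red-cell markers in quiescent DP-like cells stood at 404, 13.5 and 96.5 CPM, with 4 or 5 of 6 markers above 0. The part of these differences in the genotype values below was not tested, except where a matched value is given.

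Clustering without the 10 genes gave 4 named thymocyte classes. Quiescent DP-like cells, led by Cd8b1, Cd8a and Arpp21, numbered 4733, 3607 and 4873. Cycling cells numbered 1046, 782 and 1713, selected DP and early SP-like cells (Tox, Cd5, Itm2a) 1652, 1233 and 1809, and mature SP-like cells (Klf2, H2-K1, Ifi27l2a) 538, 410 and 806. A cluster of 86, 45 and 136 cells led by Il2ra and Hes1 but also by Tcrg-C1 and Tcrg-C2 held double negative and gamma-delta markers equally and was left unnamed. Antigen-presenting-like cells (95, 94 and 206) serve as a level outside the T lineage. Levels are compared within a gene, never between genes, and gene positions are those of GENCODE on build GRCm38.

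**Figure D1:**
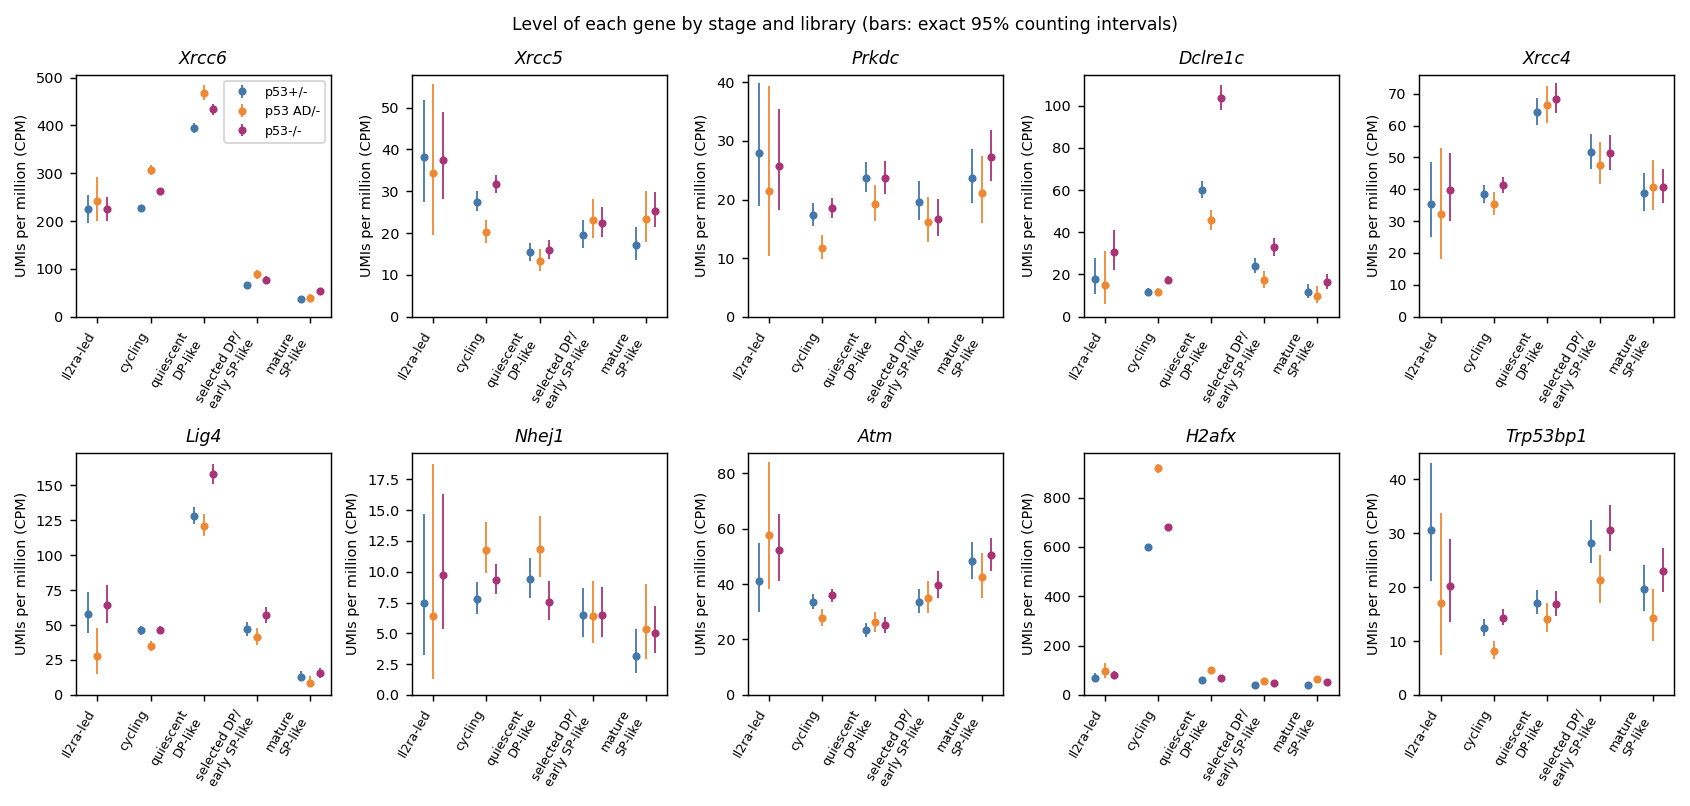
Level of each of the 10 genes, in CPM on linear axes starting at 0, in 5 thymocyte groups and 3 libraries; points are library values and bars are exact 95% counting intervals. In every library Xrcc6, Dclre1c, Xrcc4 and Lig4 are highest in quiescent DP-like cells and H2afx in cycling cells.

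The RNA of Ku70 was far lower after selection than before it. Protein was not measured. Xrcc6 (chr15:81987835-82040085, forward strand) stood at 394, 468 and 434 CPM in quiescent DP-like cells, at 65.6, 88.2 and 77.2 CPM in selected DP and early SP-like cells, and at 36.4, 39.2 and 53.4 CPM in mature SP-like cells. The levels of these stages did not overlap across libraries. The log2 ratio of mature over quiescent cells was -3.44 (-3.67 to -3.21), -3.58 (-3.88 to -3.30) and -3.02 (-3.19 to -2.86), and that of selected over quiescent cells was -2.59, -2.41 and -2.49. The selected class was itself uneven, with 122, 180.3 and 137 CPM in the Tox-led and Cd5-led cluster 3 and 26.7, 51.5 and 34.9 CPM in the Itm2a-led cluster 7. Antigen-presenting-like cells held 23.6, 38.5 and 38.6 CPM.

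The RNA of Ku80, which forms the ring with Ku70, did not have this pattern. Xrcc5 (chr1:72307421-72394952, forward strand) stood at 15.4, 13.3 and 15.8 CPM in quiescent DP-like cells, 19.6, 23.1 and 22.4 CPM in selected cells and 17.1, 23.4 and 25.4 CPM in mature SP-like cells. The mature over quiescent log2 ratio was 0.15 (-0.25 to 0.53), 0.82 (0.34 to 1.29) and 0.68 (0.36 to 0.997), so it was higher beyond counting error in the p53 AD/- and p53-/- libraries but not in p53+/-. Its levels were 38.1, 34.3 and 37.6 CPM in the unnamed Il2ra-led cluster and 27.5, 20.3 and 31.7 CPM in cycling cells, and quiescent DP-like cells had the lowest Xrcc5 level of the 5 thymocyte groups in each library. Pearson's r of log2(CPM + 1) was taken across 15 points, given by 5 groups in 3 libraries. These groups were the named thymocyte classes and antigen-presenting-like cells, without the Il2ra-led cluster. It was -0.10 between Xrcc6 and Xrcc5 and 0.89 between Xrcc6 and Lig4. These points share libraries and cells, and r is given as a description only.

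The RNA of the kinase that Ku recruits stayed within 1.5-fold of its quiescent CPM level in selected and mature SP-like cells of each library. Prkdc (chr16:15637866-15842235, forward strand) stood at 23.7, 19.2 and 23.6 CPM in quiescent DP-like cells, 19.6, 16.2 and 16.8 CPM in selected cells and 23.7, 21.1 and 27.3 CPM in mature SP-like cells. All 3 intervals of its mature over quiescent log2 ratio held 0: -0.0033 (-0.34 to 0.32), 0.14 (-0.34 to 0.59) and 0.21 (-0.082 to 0.49). The selected over quiescent log2 ratio was -0.28 (-0.57 to 0.017), -0.24 (-0.67 to 0.17) and -0.50 (-0.82 to -0.18), below 0 beyond counting error in p53-/- alone. Counted as UMIs per cell rather than as a share of the RNA, the mature over quiescent log2 ratio was 1.46, 1.67 and 1.71. BALB/c mice are known for a Prkdc allele of lower activity, and UMI counts do not show which allele these animals carried.

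The RNA of Artemis, the nuclease that opens the hairpins left by the recombinase, was highest in quiescent DP-like cells in every library. Dclre1c (chr2:3424131-3464130, forward strand) stood at 60.2, 45.6 and 104 CPM there, at 11.7, 11.5 and 17.5 CPM in cycling cells, at 23.9, 17.1 and 32.8 CPM in selected cells and at 11.6, 9.99 and 16.3 CPM in mature SP-like cells. The log2 ratio to quiescent cells was -2.37 (-2.81 to -1.96), -2.19 (-2.83 to -1.62) and -2.67 (-2.98 to -2.36) for mature SP-like cells and -2.36, -1.99 and -2.57 for cycling cells. Suv39h2, a histone methyltransferase gene on the opposite strand, shares 357 exon bases with Dclre1c, and no source used here states whether the counts used strand. Suv39h2 was counted at 6.42, 3.54 and 14.9 CPM in quiescent and 18.4, 14.8 and 22.1 CPM in cycling cells, the reverse of the Dclre1c order.

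Within the ligation complex, Lig4 was lower after selection by far more than its scaffold Xrcc4. Lig4 (chr8:9969049-9977686, reverse strand) stood at 128, 121 and 158 CPM in quiescent DP-like cells, 46.9, 41.1 and 56.9 CPM in selected cells and 12.98, 8.84 and 15.5 CPM in mature SP-like cells. Its mature over quiescent log2 ratio was -3.30 (-3.71 to -2.92), -3.78 (-4.44 to -3.18) and -3.35 (-3.68 to -3.05). Xrcc4 (chr13:89774027-90089608, reverse strand) stood at 64.2, 66.4 and 68.5 CPM in quiescent DP-like cells and 38.9, 40.7 and 40.8 CPM in mature SP-like cells, a log2 ratio of -0.72 (-0.97 to -0.48), -0.70 (-1.02 to -0.40) and -0.75 (-0.96 to -0.54). The intervals of the 2 genes did not overlap in any library. Nhej1 (chr1:74967139-75125200, reverse strand), whose product XLF aligns the ends, rested on 132, 94 and 93 UMIs in quiescent DP-like cells, or 9.41, 11.9 and 7.55 CPM, and stood at 3.19, 5.38 and 5.04 CPM in mature SP-like cells. Its log2 ratio of -1.56 (-2.47 to -0.76), -1.14 (-2.07 to -0.33) and -0.58 (-1.24 to 0.031) was below 0 beyond counting error in the p53+/- and p53 AD/- libraries and not in p53-/-.

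The promoters of 3 genes that were lower together are shown beside that of Xrcc5, which was not, so that their letters can be compared. The windows hold 250 bases before and 50 after each RefSeq start, on build GRCm38.p6, and were found for 8 of the 10 genes (9 windows, of which Lig4 has 2), with no entry for Prkdc and H2afx. Both strands were searched for the E-box CAGNTG, the ETS word CCGGAAG, the E2F words TTTCCCGC, TTTCGCGC, TTTGCCGC and TTTGGCGC, the CCAAT box CCAAT, the CRE TGACGTCA and the p53 half-site. Capitals mark the E2F word in Xrcc6 and the E-box and ETS words in Dclre1c and Lig4, on either strand. E-box and ETS words did not overlap each other, and none of these marked words was found in Xrcc5.
Xrcc6, chr15:82016119-82016418, forward strand: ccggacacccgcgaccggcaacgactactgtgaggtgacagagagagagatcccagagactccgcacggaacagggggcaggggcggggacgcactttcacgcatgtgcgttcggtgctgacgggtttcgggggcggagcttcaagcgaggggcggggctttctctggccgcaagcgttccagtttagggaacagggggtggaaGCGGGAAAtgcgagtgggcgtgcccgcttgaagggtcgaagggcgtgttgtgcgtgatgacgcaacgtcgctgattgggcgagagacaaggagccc
Dclre1c, chr2:3423881-3424180, forward strand: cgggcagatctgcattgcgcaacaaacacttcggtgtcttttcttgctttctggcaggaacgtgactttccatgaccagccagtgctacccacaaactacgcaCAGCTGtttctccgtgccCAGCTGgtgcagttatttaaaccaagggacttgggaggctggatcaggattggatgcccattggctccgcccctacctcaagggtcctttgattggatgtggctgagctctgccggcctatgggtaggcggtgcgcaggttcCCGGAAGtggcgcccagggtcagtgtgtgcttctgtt
Lig4, chr8:9977631-9977930, reverse strand: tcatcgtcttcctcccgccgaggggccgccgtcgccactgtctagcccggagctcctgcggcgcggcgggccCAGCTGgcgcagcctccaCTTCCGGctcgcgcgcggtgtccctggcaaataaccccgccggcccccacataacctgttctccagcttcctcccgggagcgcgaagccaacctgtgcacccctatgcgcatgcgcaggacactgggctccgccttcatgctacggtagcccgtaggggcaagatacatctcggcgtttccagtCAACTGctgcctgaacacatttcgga
Xrcc5, chr1:72307171-72307470, forward strand: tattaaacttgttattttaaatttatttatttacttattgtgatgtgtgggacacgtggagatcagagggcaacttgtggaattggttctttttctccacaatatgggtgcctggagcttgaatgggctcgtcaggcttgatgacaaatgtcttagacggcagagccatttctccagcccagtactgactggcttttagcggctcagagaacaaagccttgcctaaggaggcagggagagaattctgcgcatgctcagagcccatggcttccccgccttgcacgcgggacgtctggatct

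None of the searched words was found in all 3 of the printed Xrcc6, Dclre1c and Lig4 windows. Dclre1c and Lig4 each held 2 E-boxes and 1 ETS word, and Xrcc6 held 1 E2F word and 1 CCAAT. Of the 8 genes with a window, 3 held the E-box (Dclre1c, Lig4 and Atm), 4 the ETS word (the same 3 and Xrcc4), 4 held CCAAT (Xrcc5, Dclre1c, Atm and Xrcc6) and 1 an E2F word. Of 32851 mouse windows of this length, 51.4% held the E-box, 8.86% the ETS word, 37.4% CCAAT and 2.26% an E2F word. The CRE, in 1.79% of windows, and the p53 half-site, in 8.36%, were in none of the 9. A match is a run of letters, not a measured binding site, and a missing match says only that the letters are not in the window.

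The sensors did not share the course of Xrcc6, Dclre1c and Lig4. Atm (chr9:53439149-53536740, reverse strand), the kinase that phosphorylates H2AX at a break, stood at 23.3, 26.2 and 25.2 CPM in quiescent DP-like cells, 33.6, 34.96 and 39.6 CPM in selected cells and 48.3, 42.6 and 50.4 CPM in mature SP-like cells. The mature values lay above the quiescent ones without overlap, and the log2 ratio was 1.05 (0.79 to 1.30), 0.70 (0.36 to 1.04) and 1.001 (0.77 to 1.24). Trp53bp1 (chr2:121193281-121271407, reverse strand), whose product shields broken ends from trimming, stood at 17.1, 14.2 and 16.8 CPM in quiescent DP-like cells, 28.3, 21.3 and 30.7 CPM in selected cells and 19.6, 14.2 and 22.9 CPM in mature SP-like cells. Its selected over quiescent log2 ratio was 0.72 (0.45 to 1.003), 0.59 (0.17 to 0.995) and 0.87 (0.58 to 1.15). Tubgcp4, a gene on the opposite strand that shares 2130 exon bases with Trp53bp1, was lower in selected than in quiescent cells, with log2 ratios of -0.27, -0.66 and -0.41.

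H2afx marked dividing cells. This histone gene (chr9:44334694-44336077, forward strand) stood at 600.4, 918 and 681 CPM in cycling cells against 60.8, 99.5 and 69.8 CPM in quiescent DP-like cells, a log2 ratio of 3.30 (3.20 to 3.41), 3.21 (3.10 to 3.31) and 3.29 (3.19 to 3.39). Within the cycling class, cluster 6, led by Dut and Hells, held 147, 253 and 201 CPM, while the Top2a-led clusters 5 and 12 held 739, 1120.0 and 827 CPM and 746, 1152 and 818 CPM. Cluster 13, led by Top2a but also by the maturation gene Klf2 (39, 42 and 80 cells), held 546, 628 and 602 CPM. Cluster 6 was below the other 3 in every library. Cluster 13 had the lowest Xrcc6 (44.7, 105 and 123 CPM) and Lig4 (13.7, 12.4 and 24.1 CPM) of the 4 cycling clusters in each library. In mature SP-like cells H2afx stood at 41.9, 65.7 and 54.2 CPM, below its quiescent level, and with the mitochondrial limit at 5% the mature over quiescent log2 ratio of H2afx turned to 1.10, 1.02 and 0.90.

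A gene counted as different between stages when its CPM ratio was past 1.5-fold in the same direction in all 3 libraries, among genes with at least 30 UMIs in the pair. In selected cells 1 of the 10 genes was higher (Trp53bp1), where 8.35% of 9928 genes were, and 3 were lower (Xrcc6, Dclre1c and Lig4), where 10.9% were. In mature SP-like cells 1 was higher (Atm; 10.8% of 9802 genes) and 4 were lower (Xrcc6, Dclre1c, Xrcc4 and Lig4; 27.5%). In cycling cells 2 were higher (Xrcc5 and H2afx; 14.3% of 10441 genes) and 4 were lower (Xrcc6, Dclre1c, Xrcc4 and Lig4; 37.6%), a count near the background share. With TMM scaling (edgeR) the cycling counts were 3 higher, as Atm joined with log2 ratios of 0.997, 0.59 and 1.02, and 2 lower (Dclre1c and Lig4). In mature SP-like cells TMM scaling left 3 lower, with Xrcc4 at -0.44, -0.39 and -0.46. Shares over all genes were not computed with TMM scaling, which also shifted the median of all genes. The TMM counts therefore cannot be set against the shares given here. The median log2 ratio of the 10 genes was -0.47 in selected, -0.63 in mature SP-like and -0.46 in cycling cells, against -0.11, -0.39 and -0.45 over all genes tested.

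CPM is a share of the RNA counted in a class, and cycling cells had medians of 13684, 11210 and 11627 UMIs against 2740, 1997 and 2295 in quiescent DP-like cells. Per cell, Xrcc6 was therefore higher in cycling than in quiescent cells, with log2 ratios of 1.74, 2.08 and 1.83, as were Xrcc4 (1.79, 1.79 and 1.82) and Lig4 (1.06, 0.90 and 0.78). Dclre1c per cell was 0.17, 0.71 and -0.016 on the same scale. The lower Xrcc6, Dclre1c and Lig4 of mature SP-like cells was found on both scales, with per-cell log2 ratios of -1.98, -2.05 and -1.53 for Xrcc6, -0.91, -0.66 and -1.17 for Dclre1c and -1.84, -2.24 and -1.85 for Lig4. In selected cells the per-cell log2 ratio was -2.09, -1.71 and -1.93 for Xrcc6, -0.83, -0.72 and -1.10 for Dclre1c and -0.95, -0.86 and -0.91 for Lig4. In mature SP-like cells Xrcc4 went from lower in CPM to higher per cell (0.74, 0.83 and 0.75), as did H2afx (0.92, 0.93 and 1.13). Prkdc and Trp53bp1 in cycling cells were below 0 in CPM, with log2 ratios of -0.45, -0.71 and -0.35 and -0.46, -0.79 and -0.23, and above 0 per cell, with 2.08, 1.98 and 2.20 and 2.07, 1.91 and 2.32.

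**Figure D2:**
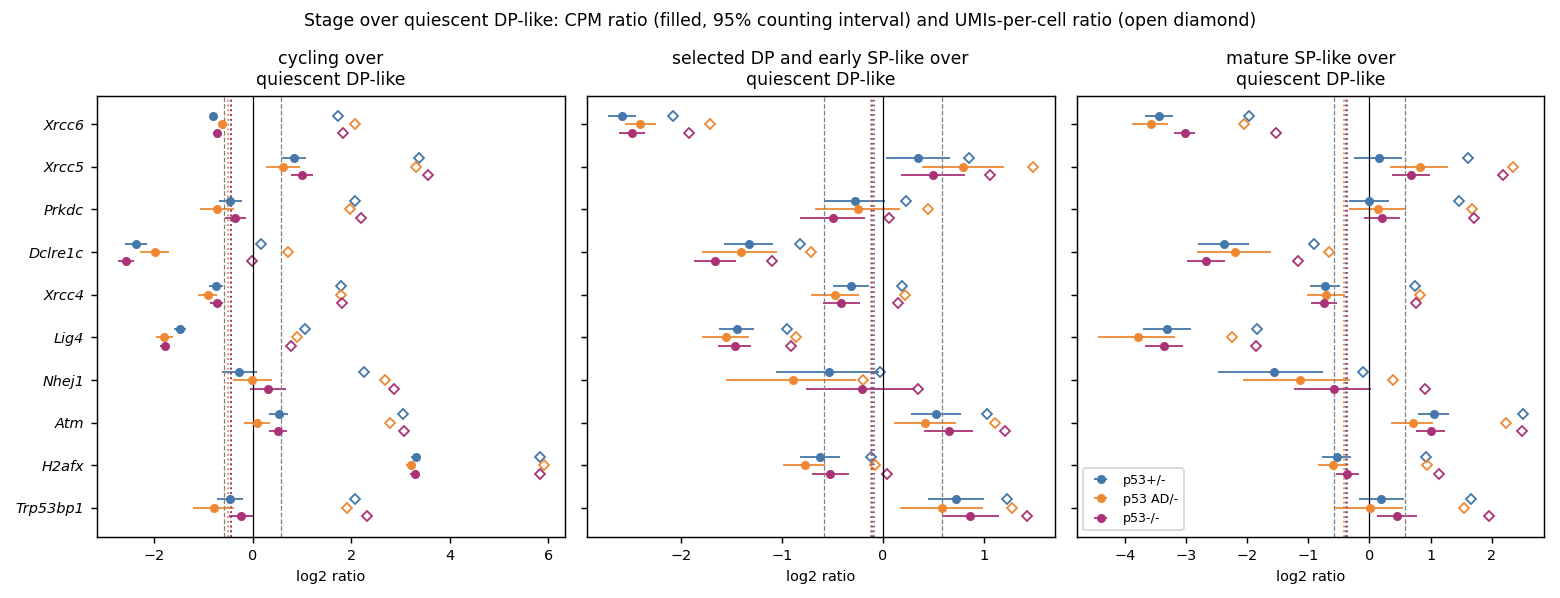
Log2 ratio of each stage to quiescent DP-like cells of the same library; filled points are CPM ratios with exact 95% counting intervals, open diamonds are ratios of UMIs per cell, dashed lines mark 1.5-fold and dotted lines the median of all genes tested in each library. Xrcc6, Dclre1c and Lig4 lie left of the lower 1.5-fold line for selected and mature cells on both scales, and in cycling cells the diamonds lie to the right of the filled points.

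The genes that make and tail the receptor breaks had the same direction. Rag1, the cutting subunit, stood at 2199, 1776 and 2229 CPM in quiescent DP-like cells and 157, 131 and 172 CPM in selected cells, a log2 ratio of -3.81, -3.76 and -3.70. Rag1, Rag2 and Dntt, the polymerase that adds bases to cut ends, were all 3 lower past 1.5-fold in cycling, selected and mature SP-like cells. The background shares lower were 37.6%, 10.9% and 27.5%. These 3 genes were kept out of the variable genes, but they are among the 11 quiescent DP-like markers whose detection helped to name clusters. Their lower level in the other classes is therefore not independent of the class names. Among 7718 genes, those most like Xrcc6 over the 15 points were Desi1 (r = 0.994), Dntt (r = 0.992) and Dgkeos (r = 0.990).

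Other end-joining genes and sensors were read from lists of 15 and 20 genes. Of 14 end-joining partners tested in cycling cells 5 were higher and 5 lower, where 14.3% and 37.6% of all genes were, and their median log2 ratio was 0.35 against -0.45 over all genes. The ends of the list were Hmgb2 (3.72, 4.10 and 3.82) and Polq, the polymerase of an alternative joining route (3.39, 3.90 and 3.12), with the highest log2 ratios, and Polm, a polymerase of the classical route (-1.75, -2.14 and -1.92), with low ones. In selected and in mature SP-like cells 0 of 12 were higher and 3 were lower, Hmgb1 in both (-1.79, -2.01 and -1.67 in mature cells). The background shares were 8.35% and 10.8% higher and 10.9% and 27.5% lower. The list medians were -0.33 and -0.63 against -0.11 and -0.39 over all genes. Shares of 5 in 14 and 3 in 12 lower are near the background in cycling and mature cells. Of the sensing and chromatin genes 9 of 20 were higher and 1 lower in cycling cells (median 0.30), led by the checkpoint kinase Chek1 (5.06, 5.78 and 5.32), and of 19 tested 1 was higher and 0 lower in selected cells and 1 higher and 1 lower in mature SP-like cells (medians -0.069 and -0.18). The higher gene was Nbn, of the break-binding Mre11 complex, in both, and 1 in 19 is not above the background shares higher. For contrast, 13 of 15 homologous recombination genes were higher and 2 lower in cycling cells, with a median log2 ratio of 2.89.

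**Figure D3:**
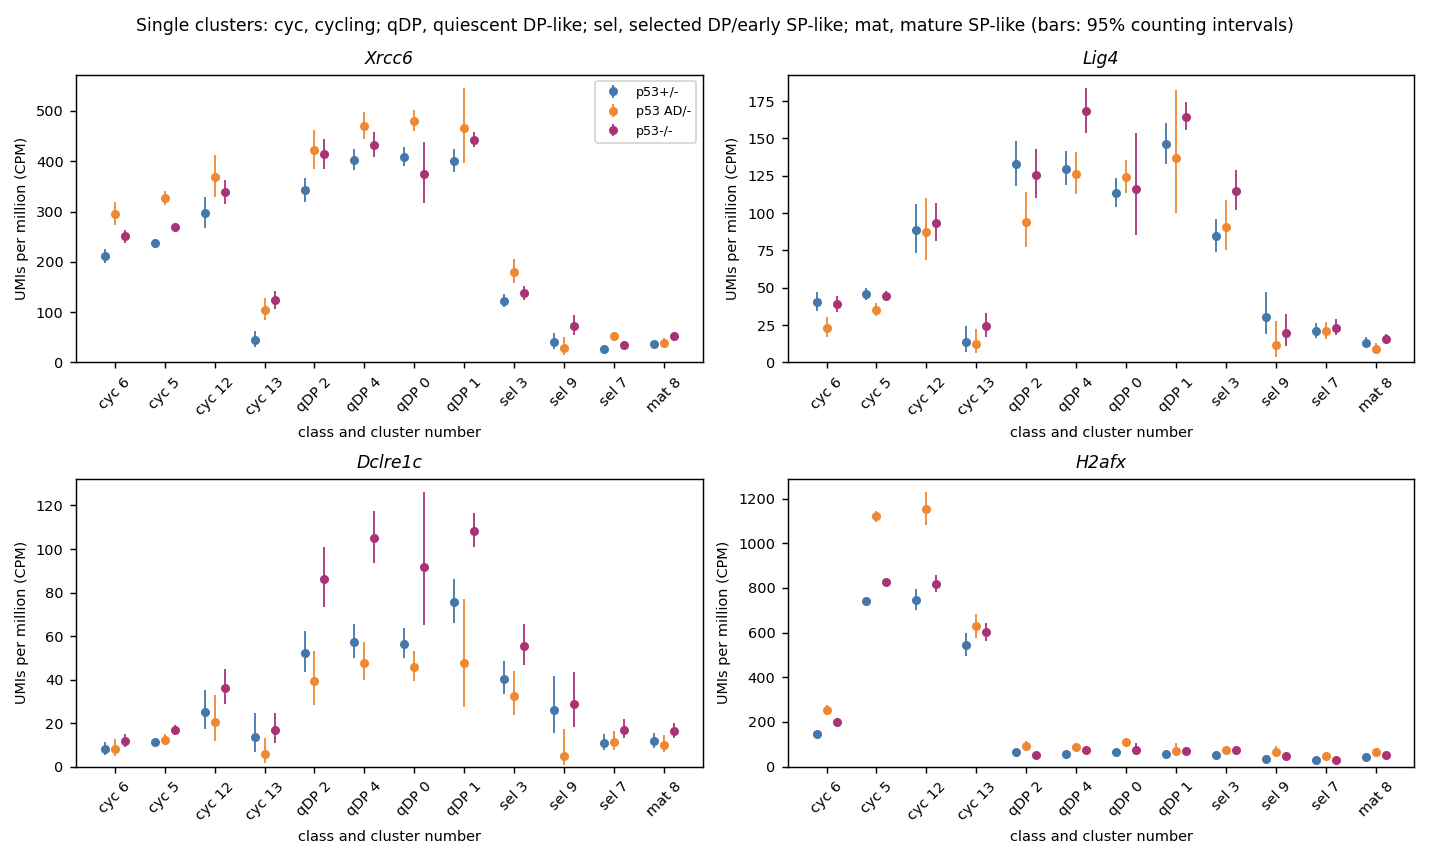
Xrcc6, Lig4, Dclre1c and H2afx in 12 single clusters, in CPM on linear axes starting at 0; points are library values and bars are exact 95% counting intervals. Xrcc6 and Lig4 are lower in cluster 7 than in cluster 3, Dclre1c of the p53-/- library lies above the other libraries in all 4 quiescent DP-like clusters, and H2afx is lower in cluster 6 than in clusters 5, 12 and 13.

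Several of the genes start back to back with a neighbour on the other strand, and only some neighbours had the same direction. The start of Desi1 lies 111 bases from that of Xrcc6 in RefSeq, inside the printed window. In GENCODE the span of Xrcc6 begins further upstream, at 81987835, so the Desi1 start (82016258) lies inside Xrcc6 there. Desi1 stood at 275, 364 and 283 CPM in quiescent DP-like cells and 42.8, 45.3 and 48.7 CPM in mature SP-like cells, a log2 ratio of -2.69, -3.003 and -2.54. This pair was singled out after its values were seen, and an annotated form of Xrcc6 shares 344 exon bases with Desi1, so reads of the 2 could be confused if strand was not used. Abhd13, 21 bases from Lig4, was lower in mature SP-like cells by less than Lig4 was (-1.38, -1.01 and -1.24). Tmem167, 485 bases from Xrcc4 and sharing 112 exon bases with it, had ratios of 0.035, -0.0063 and -0.062. Its start lies inside Xrcc4, so these 2 genes overlap rather than start back to back. Npat, 307 bases from Atm, was lower (-0.91, -0.61 and -0.91) where Atm was higher. Mcm4, 466 bases from Prkdc, stood at 176, 145 and 171 CPM in cycling and 31.4, 31.1 and 34.8 CPM in quiescent DP-like cells, whereas Prkdc stood at 17.4, 11.7 and 18.6 CPM in cycling cells, below its quiescent level in CPM, although TMM scaling put its log2 ratio at 0.023, -0.21 and 0.16.

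**Figure D4:**
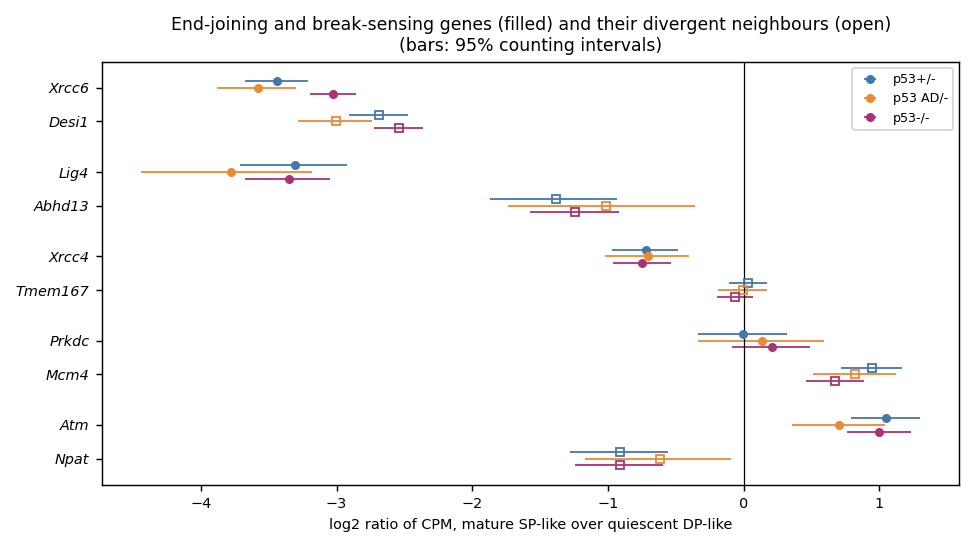
Log2 ratio of CPM in mature SP-like over quiescent DP-like cells, by library, with exact 95% counting intervals. Filled circles are 5 of the genes and open squares a neighbour of each on the other strand. Each neighbour starts back to back with its gene except Tmem167, which starts inside Xrcc4, and Desi1. Desi1 starts back to back with Xrcc6 by the RefSeq start but inside the GENCODE span of Xrcc6. Xrcc6 and Desi1 both lie at -2.54 or below, whereas Atm and Npat lie on opposite sides of 0.

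Of the 10 genes, Dclre1c, which encodes Artemis, had the largest difference between 2 libraries in quiescent DP-like cells. The Dclre1c levels of 60.2, 45.6 and 104 CPM gave a log2 ratio of 0.79 (0.66 to 0.91) in p53-/- over p53+/-. The log2 ratio of p53 AD/- was -1.18 (-1.36 to -1.01) to p53-/- and -0.40 (-0.58 to -0.22) to p53+/-. These 3 pairs share libraries and are not independent. The p53-/- library had the highest Dclre1c level in all 6 cell groups, antigen-presenting-like cells included (10.98, 11.6 and 25.1 CPM). The p53-/- library stood apart in how its quiescent DP-like cells fell into clusters: cluster 0 held 37.5%, 53.1% and 3.98% of them and was the largest in the other 2 libraries, and cluster 1 held 21.7%, 4.69% and 61.1%. Within clusters 0, 1, 2 and 4 the log2 ratio of p53-/- over p53+/- was 0.70, 0.52, 0.73 and 0.87, and that of p53 AD/- over p53-/- was -1.002, -1.19, -1.13 and -1.14, with no interval that held 0. The overlapping gene Suv39h2 had the same order of libraries in these cells (6.42, 3.54 and 14.9 CPM), and so did the summed CPM of 8 of 15 marker lists, among them double negative markers (67.5, 37.05 and 83.6 CPM), cycling markers (318, 231 and 388 CPM) and granulocyte markers (36.1, 5.06 and 47.6 CPM). The part of these in the Dclre1c difference was not tested.

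H2afx was higher in p53 AD/- than in both other libraries in all 5 thymocyte groups, but not in antigen-presenting-like cells (49.8, 59.7 and 83.9 CPM), where its log2 ratio to p53-/- was -0.49 (-0.93 to -0.069). In quiescent DP-like cells its log2 ratio was 0.71 (0.57 to 0.85) over p53+/- and 0.51 (0.37 to 0.65) over p53-/-, and in cycling cells 0.61 (0.57 to 0.65) and 0.43 (0.39 to 0.47). Of the 5 thymocyte groups, the H2afx interval lay above 0 in 4 over p53+/- and in 3 over p53-/-. Lig4 was lower in p53 AD/- than in p53-/- in the same 5 groups, with a log2 ratio of -0.38 (-0.50 to -0.27) in quiescent DP-like cells and an interval below 0 in each group, while antigen-presenting-like cells held 7.60, 12.5 and 11.2 CPM. Prkdc and Trp53bp1 were lower in p53 AD/- than in both other libraries in those 5 groups, with log2 ratios to p53-/- in cycling cells of -0.66 (-0.96 to -0.38) and -0.81 (-1.16 to -0.47). The interval to p53-/- lay below 0 in 2 of the groups for Prkdc and in 3 for Trp53bp1. Summed cycling markers did not have the H2afx order, with 318, 231 and 388 CPM in quiescent DP-like and 7685, 7926 and 8881 CPM in cycling cells.

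Transcript length moved with the p53 AD/- values. Genes were put in 10 equal groups by their longest annotated transcript, and the longest group holds Prkdc, Dclre1c, Atm and Trp53bp1. Its median log2 ratio in quiescent DP-like cells was -0.54 in p53 AD/- over p53-/-, -0.41 in p53 AD/- over p53+/- and 0.13 in p53-/- over p53+/-. Less that median, Dclre1c was at -0.64, 0.0080 and 0.66, so its ratio of p53 AD/- over p53+/- was at the median of long genes. Prkdc turned from -0.30 to 0.24 over p53-/- and from -0.30 to 0.10 over p53+/-, and Trp53bp1 from -0.25 to 0.29 and from -0.27 to 0.13. Atm went from 0.056 to 0.597 in p53 AD/- over p53-/-, past 1.5-fold, and Lig4, less the median of its own length group, from -0.38 to -0.086. Less the median of its own length group, H2afx was at 0.45 in p53 AD/- over p53+/-, under 1.5-fold. Length medians were taken in quiescent DP-like cells only. The ratios between libraries in other classes, such as those of Prkdc and Trp53bp1 in cycling cells, were not adjusted. In cells matched on their Malat1 share, 2249 per library, the log2 ratio of p53 AD/- over p53-/- was -0.98 for Dclre1c. In the same matched cells Dclre1c was at 0.72 in p53-/- over p53+/-, and H2afx at 0.67 in p53 AD/- over p53+/-.

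**Figure D5:**
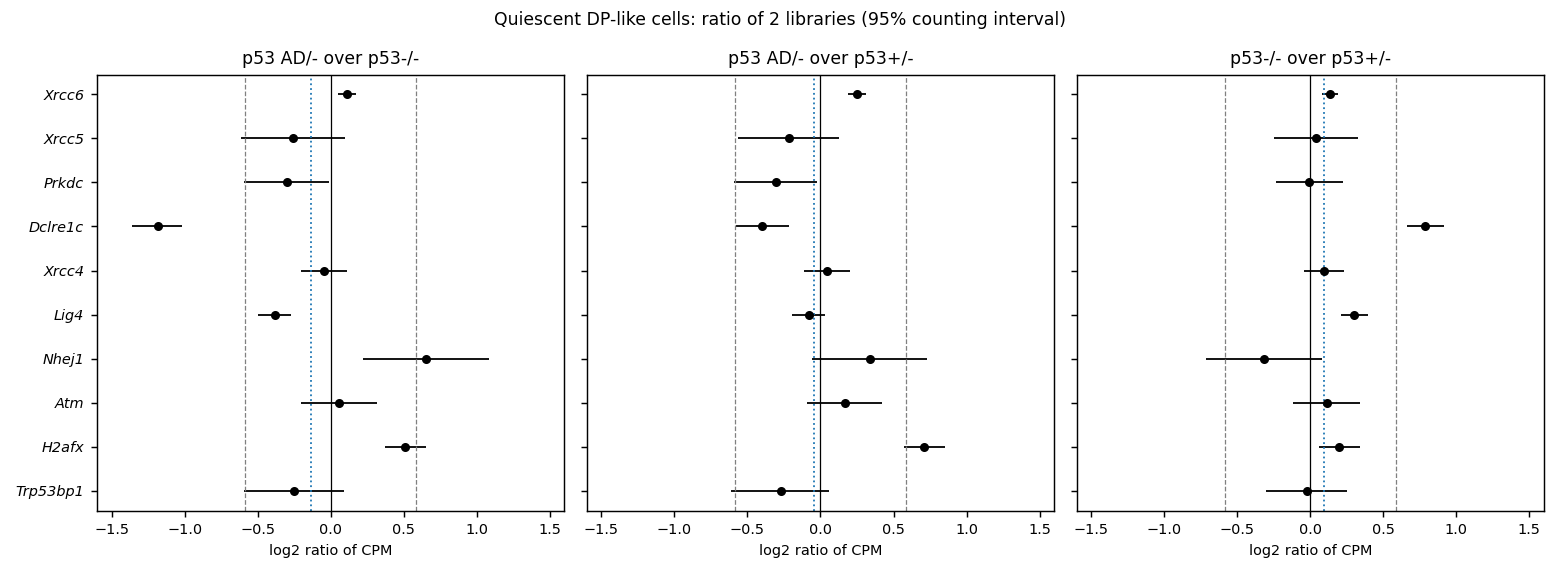
Log2 ratio of CPM between pairs of libraries in quiescent DP-like cells for the 10 genes, with exact 95% counting intervals; dashed lines mark 1.5-fold and the dotted line the median of all genes tested. Dclre1c is the gene farthest from 0 in both comparisons with p53-/-, and H2afx in p53 AD/- over p53+/-.

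Past 1.5-fold in quiescent DP-like cells, p53 AD/- over p53-/- had 1 of the 10 genes higher (Nhej1, from 94 and 93 UMIs), where 6.54% of 10915 genes were, and 1 lower (Dclre1c), where 20.9% were. For p53 AD/- over p53+/- 1 was higher (H2afx; 6.55% of 10950 genes) and 0 were lower (14.1%), and for p53-/- over p53+/- 1 was higher (Dclre1c; 5.93% of 11374 genes) and 0 were lower (3.12%). Counts of 0 or 1 in 10 are near these shares and are not a result about the 10 genes. In cycling cells p53 AD/- over p53-/- had 0 higher (4.13%) and 4 lower (Xrcc5, Prkdc, Dclre1c and Trp53bp1; 22.8%), p53 AD/- over p53+/- had 2 higher (Nhej1 and H2afx; 5.15%) and 1 lower (Trp53bp1; 16.1%), and p53-/- over p53+/- had 0 higher (5.11%) and 0 lower (2.39%). In selected cells the only gene past 1.5-fold in any pair was Dclre1c, lower in p53 AD/- over p53-/-; the background shares higher and lower were 4.57% and 18.7% for that pair, 5.35% and 13.8% for p53 AD/- over p53+/-, and 5.55% and 3.23% for p53-/- over p53+/-. In mature SP-like cells p53 AD/- over p53-/- had 0 higher (4.99%) and 3 lower (Dclre1c, Lig4 and Trp53bp1; 23.2%). There p53 AD/- over p53+/- had 1 of 9 tested higher (H2afx; 6.48%) and 0 lower (15.5%), and p53-/- over p53+/- had 1 higher (Nhej1; 8.47%) and 0 lower (2.85%). Of the end-joining partners in quiescent DP-like cells 1 of 13 was lower (Lig3, -0.67) in p53 AD/- over p53-/-, where 20.9% of all genes were, and 0 of 14 in either direction in p53-/- over p53+/-. In those cells Rag2 was past 1.5-fold higher in p53 AD/- over p53-/- (0.60 (0.50 to 0.71)) and stood at 0.24 (0.14 to 0.33) over p53+/-, whereas Rag1 was at -0.33 (-0.36 to -0.30) and -0.31 (-0.34 to -0.28). In p53-/- over p53+/- Rag1 was at 0.019 (-0.0042 to 0.043) and Rag2 at -0.37 (-0.47 to -0.27).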

How the data were processed

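UMI counts per gene and cell were deposited as 3 filtered matrices, made by the authors with Cell Ranger 4.0.0 on GRCm38, per the file headers and the submitters' processing notes. No source used here gives the chemistry, the annotation or whether counts used strand. The libraries held 8880, 6308 and 9889 barcodes with 46498800, 27638820 and 54164425 UMIs (p53+/-, p53 AD/-, p53-/-).

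Cells with at least 500 genes and under 10% mitochondrial UMIs were scaled to 10000 UMIs, log-transformed and clustered together (scanpy 1.11.5, 2000 variable genes, 30 components, 15 neighbours, Leiden resolution 1). The 10 genes, all list genes, receptor segments, mitochondrial and ribosomal genes were kept out of the variable genes. A cluster was named from a marker list when at least 3 of its markers were detected in at least 5% of cells. That list also had to have most genes among the top 10 by difference or by fold. A tie in these genes went to the list with the larger share of its markers detected. A tie in both left the cluster unnamed. This union of 2 rankings and the rule on ties were chosen after seeing the data. No doublet caller was run, and an alternative leaves out the 5% of cells with most UMIs.

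UMIs were summed per class and library. Levels are CPM of these sums with exact Poisson intervals, and log2 ratios carry exact conditional binomial 95% intervals (scipy 1.17.1). Genes with at least 30 UMIs in a pair were compared, and 1.5-fold was the threshold; the calculation was tested on simulated data. Each genotype has 1 library, which leaves nothing to test. The 10 genes, the gene lists and the comparisons were chosen with earlier results of these data known. Named genes are the 10, at most 2 at each end of a list among those with at least 100 UMIs, neighbours starting within 1000 bases on the other strand, and the 3 genes most like each by Pearson's r. Of 32285 gene IDs, 32235 matched the annotation. Alternatives covered cell filters, clustering, doublets, TMM factors (edgeR 4.0.16), mean over cells, UMI floor, fold, all cells, Malat1 matching, transcript length and UMIs per cell. Promoter windows came from RefSeq (GRCm38.p6). Some results on single genes of the lists are not reported here.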

Additional observations from a re-analysis of the deposited data

Results flagged for a closer look

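Xrcc6 had opposite directions between 2 libraries at 2 stages. In cycling cells the p53 AD/- level was 306 CPM and the p53-/- level 263 CPM, a log2 ratio of 0.22 (0.16 to 0.28), and in mature SP-like cells the levels were 39.2 and 53.4 CPM, a log2 ratio of -0.45 (-0.78 to -0.12). The 2 log2 ratios differ by 0.66. With 1 library per genotype this difference was not tested.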

How the results depend on the processing

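The settings below were planned, except leaving out a library, which was chosen after seeing the data. No paired analysis was possible because there is 1 library per genotype. Of 360 log2 ratios between libraries under the alternatives 325 moved by less than their counting interval and 35 by more, and of 900 between stages 674, 207 and 19 moved by less, moved by more and reversed, which means past 1.5-fold at first and then of the other sign. Over 12 alternatives the Dclre1c log2 ratio of p53 AD/- over p53-/- ranged from -1.22 to -0.64, that of p53-/- over p53+/- from 0.47 to 0.82, and the H2afx ratio of p53 AD/- over p53+/- from 0.45 to 0.78.

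Shares over all genes were not computed under the alternatives, so the counts in this paragraph have no background beside them. In cycling cells the count of higher genes (2) was 1 at 1000 genes per cell, 1 without the 5% of cells with most UMIs, 1 by the mean over cells, 1 at 2-fold and 9 per cell, and the count of lower genes (4) was 2 with TMM factors (which also brought Atm among the higher and took Xrcc4 out of the lower in mature cells), 2 at 2-fold and 0 per cell. In selected cells the higher count (1) was 0 under 5% mitochondrial UMIs, 0 at resolution 0.5, 0 at 2-fold and 3 per cell, and the lower count (3) was 5 at 1000 genes per cell. In mature SP-like cells the higher count (1) was 2 under 5% mitochondrial UMIs, 0 at 2-fold, 6 per cell and 1 to 2 with a library left out (Xrcc5 joined Atm without p53+/-). For p53 AD/- over p53-/- the higher count (1, Nhej1) was 0 under 5% mitochondrial UMIs, at resolution 0.5, with 3000 variable genes, without the cells with most UMIs, at 2-fold, in all cells and in Malat1-matched cells, 2 with TMM factors and 1, Atm in place of Nhej1, less the median of equally long genes. For p53 AD/- over p53+/- the higher count (1) was 0 at 2-fold and 0 less the median of equally long genes, and for p53-/- over p53+/- it (1) was 0 at 2-fold and 0 in all cells.

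Counted per cell, the cycling over quiescent log2 ratio reversed to 1.74, 2.08 and 1.83 for Xrcc6, 1.79, 1.79 and 1.82 for Xrcc4, 1.06, 0.90 and 0.78 for Lig4, 0.17 and 0.71 for Dclre1c in p53+/- and p53 AD/-, and 1.98 and 1.91 for Prkdc and Trp53bp1 in p53 AD/-, and the mature over quiescent ratio to 0.74, 0.83 and 0.75 for Xrcc4 and, in p53 AD/-, 0.39 for Nhej1 and 0.93 for H2afx. Ratios within 1.5-fold also changed sign per cell in the other libraries, with cycling values of 2.08 and 2.20 for Prkdc and 2.07 and 2.32 for Trp53bp1 and mature values of 0.92 and 1.13 for H2afx in p53+/- and p53-/-. Under 5% mitochondrial UMIs the CPM ratio of H2afx in mature SP-like cells turned to 1.10, 1.02 and 0.90 in the 3 libraries. TMM factors shifted the median of all genes by 0.47 to 0.51 in cycling cells, 0.28 to 0.32 in mature SP-like cells and 0.13 in p53 AD/- over p53-/-. The cause of these changes was not tested. By their construction the per-cell ratios also carry the larger UMI totals of cycling and mature cells. Depth limits Nhej1 most, with 93 to 132 UMIs in quiescent DP-like cells.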

Other observations

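By likeness of log2(CPM + 1) over the 15 points, the other genes fell beside different partners. Xrcc5 was most like Nop58, Gnl3 and Gar1 (r = 0.892, 0.888 and 0.885), which act in ribosome and small nucleolar RNA biology, and H2afx was most like Ccdc34 and the mitotic kinesin Kif22 (r = 0.987 and 0.978). Lig4 was most like Ano6 (r = 0.985), Dclre1c most like Mirt1 (r = 0.969), Xrcc4 most like Desi2 (r = 0.986), Atm most like Drosha (r = 0.933), Prkdc most like Igf2r (r = 0.889), Nhej1 most like Ubald2 (r = 0.969) and Trp53bp1 most like Clint1 (r = 0.951). The points share libraries and cells, and each partner was the best of 7718 genes, so these values only describe.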
